A study of Mus musculus with 12 samples.

Results

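The type I interferon response genes examined here were 44 genes of mouse microglia, chosen by gene symbol: the ligand Ifnb1, both chains of its receptor, 3 transcription factors, 6 nucleic acid sensors and 32 induced effector genes. All 44 were found among the 55401 genes of the count files, and all 44 were among the 16451 genes that passed the filter on low counts. RNA was sequenced from CD45int CD11b+ cells sorted by flow cytometry from male mice, with 3 to 4 hemispheres pooled into each replicate. Both genotypes, WT and miKO, were taken after each surgery, Sham and tFCI, with 3 libraries in each of the 4 groups. WT mice were Cx3cr1 wt/wt Hdac3 loxp/loxp, and miKO mice were Cx3cr1 CreER/wt Hdac3 loxp/loxp, so every group carried floxed Hdac3 alleles. In miKO mice a CreER recombinase under the Cx3cr1 promoter, sitting in 1 Cx3cr1 allele, deletes Hdac3 after tamoxifen, so loss of the histone deacetylase HDAC3 and loss of that Cx3cr1 allele cannot be told apart. Tamoxifen was given at 6 to 8 weeks of age and surgery followed at least 1 month later. tFCI, transient focal cerebral ischemia, was a 60 min occlusion of the middle cerebral artery, Sham was the surgery without occlusion, and cells were taken 3 days later.

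Type I interferons bind the receptor formed by IFNAR1 and IFNAR2, whose kinases JAK1 and TYK2 signal to the transcription factor complex ISGF3, which holds STAT2 and IRF9 and binds the interferon-stimulated response element (ISRE) before the genes it induces. IRF7, itself induced, raises further interferon expression, while USP18 is a brake at the receptor. In the brain, microglia are a main responder to type I interferon, and a set of microglia rich in these transcripts is known from injury and ageing.

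The core of the ISRE, written as GAAA, 2 bases of any kind and GAAA again, searched on both strands in the 250 bases before each RefSeq start site (GRCm38.p6), was found for 15 of the 34 members in the promoter table, 44.1%. It was found for 936 of all 27025 genes in that table, 3.46%. The GAS element TTCNNNGAA, named for genes activated by interferon-gamma, was found for 6 of the 34, 17.6%, against 8.13% of all genes. The members without an entry were Dhx58, Zbp1, Ifi204, Usp18, Oas2, Mx1, Mx2, Ifi27l2a, Rtp4 and Parp14. The stretches below run 5′ to 3′ on the gene's strand, with matches to the ISRE core or its reverse complement in capitals. They are shown first for 7 members that were called higher after stroke in WT microglia. The last lines show Gbp3 and Slfn8, which were called lower in miKO-Sham over WT-Sham, as were 6.80% of all genes. Gbp3 was also called higher after stroke in WT.
Isg15, chr4:156200855-156200916, - strand: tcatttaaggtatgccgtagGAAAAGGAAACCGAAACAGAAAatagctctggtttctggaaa
Ifit1, chr19:34640765-34640833, + strand: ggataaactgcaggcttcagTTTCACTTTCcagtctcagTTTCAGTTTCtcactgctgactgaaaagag
Ifit3, chr19:34583353-34583436, + strand: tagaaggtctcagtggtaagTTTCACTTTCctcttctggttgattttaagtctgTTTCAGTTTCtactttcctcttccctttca
Stat2, chr10:128270256-128270305, + strand: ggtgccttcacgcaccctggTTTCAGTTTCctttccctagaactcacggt
Rsad2, chr12:26456543-26456592, - strand: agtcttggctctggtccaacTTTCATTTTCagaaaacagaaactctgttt
Bst2, chr8:71537567-71537622, - strand: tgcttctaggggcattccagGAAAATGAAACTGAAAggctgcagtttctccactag
Oas1a, chr5:120907526-120907565, - strand: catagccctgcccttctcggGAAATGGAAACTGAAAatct
Gbp3, chr3:142559979-142560034, + strand: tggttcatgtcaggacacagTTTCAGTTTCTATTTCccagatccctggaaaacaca
Slfn8, chr11:83020829-83020878, - strand: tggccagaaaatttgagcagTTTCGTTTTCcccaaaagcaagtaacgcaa
More than 1 match was found in 7 of the 15 members. The Isg15 stretch holds 3 overlapping matches, the farthest beginning 78 bases before the start site. The 84 bases shown for Ifit3 were letter for letter the same at Ifit3b, its neighbour on chromosome 19, and in Bst2 the ISRE match overlaps a GAS match. A match is a description of the letters and no evidence of binding.

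Libraries held 7697864 to 9452222 counts on genes. Replicate 1 of each group formed batch 1 and replicates 2 and 3 formed batch 2, and all tests carried a batch term. All 10 microglia markers were detected, with summed levels of 29282 to 38678 CPM, counts scaled to library size, in WT-Sham, 27254 to 32296 in miKO-Sham, 20942 to 23284 in WT-tFCI and 10484 to 20267 in miKO-tFCI, so the labelled cell type was present in every library. Hdac3, the targeted gene, was at 35, 44 and 46.4 CPM in WT-Sham, 25.8, 25 and 20.9 in miKO-Sham, 54, 52.9 and 43.9 in WT-tFCI, and 36, 27.1 and 28.9 in miKO-tFCI. It was called lower in miKO than in WT in Sham (log2 fold change −0.81 ± 0.16 SE) and after tFCI (−0.71 ± 0.16 SE), the latter not without WT-tFCI replicate 2 (adjusted p = 0.0705), and part of its transcript was still present in miKO libraries. A gene was called, here and below, where the adjusted p (edgeR quasi-likelihood test, Benjamini-Hochberg over all genes tested) was below 0.05 and the log2 fold change exceeded 0.58 in size. The labels name 3 replicates per group, but the deposited names of miKO-Sham replicates 1 and 2 share a sample tag, so that these may not be separate pools. They were the closest pair of replicates, differing by more than sampling noise (chi-square of 2.82 per degree of freedom), and were kept as 2 samples. The p-values describe the spread between these libraries. In bulk RNA, fewer responding cells and less RNA per cell cannot be told apart.

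The stroke response of WT microglia was broad across the members. In WT-tFCI against WT-Sham, 35 of the 44 genes were called higher and 0 lower, where 20.9% of all genes tested were called higher and 11.7% lower. The median log2 fold change was 2.07 over the members and 0.02 over all genes, and it was 1.70 in batch 1 and 2.22 in batch 2. In 36 members all 3 WT-tFCI libraries lay above all 3 WT-Sham libraries (26.9% of all genes did). In 1, Slfn8, they lay below (22.9% of all genes did). Summed over the members, the level was 951 to 1030 CPM in WT-Sham and 2419 to 2833 CPM in WT-tFCI. In the same comparison 4 of 8 monocyte and macrophage markers were called higher, with sums of 13 to 94 CPM in WT-Sham and 363 to 654 in WT-tFCI, and 4 of 6 endothelial markers, with sums of 22.1 to 30.7 and 60.2 to 169 CPM. Of the 10 microglia markers 7 were called lower, and the part of these cells in the members' changes was not tested.

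The miKO genotype without stroke was also accompanied by calls in the set. In miKO-Sham against WT-Sham, 20 of the 44 were called higher (8.58% of all genes) and 3 lower (6.80% of all genes), with a median log2 fold change of 0.69 over the members and 0.04 over all genes, 0.49 in batch 1 and 0.70 in batch 2. In 23 members the miKO-Sham libraries all lay above the WT-Sham libraries (17.0% of all genes) and in 4, Herc6, Gbp3, Slfn8 and Samd9l, all below (16.2% of all genes). The miKO-Sham libraries summed to 1441 to 1607 CPM, between WT-Sham and WT-tFCI, with no overlap with either. Members with high levels weigh most in such sums, and not the same ones in each group. Mean Ifnar2 was 143 CPM in WT-Sham, 281 in miKO-Sham and 133 in WT-tFCI, and mean Ifi27l2a was 11.0, 28.8 and 306. Without miKO-Sham replicate 1, 19 members were called higher and 2 lower, and without miKO-Sham replicate 2, 23 higher and 1 lower. Scaled by total counts alone, which moved the median of all genes to −0.23, 13 members were called higher. This comparison shares the WT-Sham libraries with the stroke comparison, so the values of both are given side by side and no likeness between them is drawn. After stroke, calls by genotype were few among the members and among all genes. In miKO-tFCI against WT-tFCI, 1 member was called higher (4.08% of all genes) and 1 lower (4.71% of all genes), 2 in either direction (8.79% of all genes). The median was 0.12 over the members and 0.04 over all genes.

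**Figure D1:**
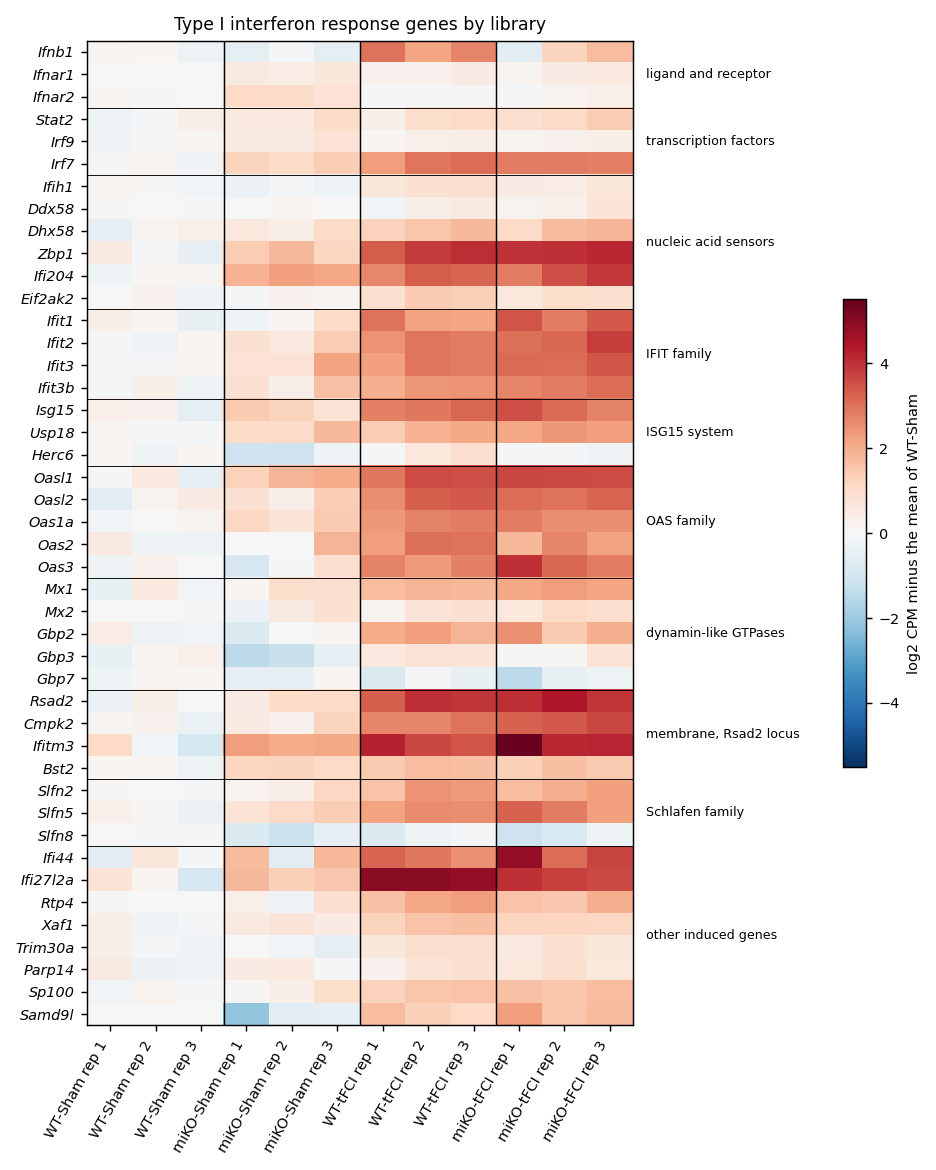
Log2 CPM of the 44 members (rows, grouped by role) in the 12 libraries (columns, 3 per group), each minus the mean of the WT-Sham libraries; red is above and blue below that mean. The tFCI columns are red for most rows in both genotypes, and the miKO-Sham columns are paler red for most rows. Herc6, Gbp3, Slfn8, Samd9l, Ifnb1, Ifih1 and Trim30a are below the WT-Sham mean in every miKO-Sham library.

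Of the ligand and its receptor, Ifnb1 was nearly silent without stroke. It had 3, 3 and 2 counts in the WT-Sham libraries, 1, 2 and 1 in miKO-Sham, 33, 19 and 26 in WT-tFCI and 1, 8 and 12 in miKO-tFCI. Every WT-tFCI library held more Ifnb1 than every other library. Summed counts scaled to library size rose 10.4 times with tFCI in WT mice, with a 95% interval for counting error alone of 5.04 to 25, and Ifnb1 was called higher (edgeR, Benjamini-Hochberg adjusted p = 0.00282). In miKO-tFCI the summed level was 0.264 times that of WT-tFCI (0.155 to 0.431, counting error alone), yet Ifnb1 did not pass the test across replicates, with a log2 fold change of −1.95 ± 0.68 SE and an edgeR Benjamini-Hochberg adjusted p of 0.0873. The other 17 type I interferon ligands searched, the Ifna genes and their relatives, summed to at most 0.742 CPM in any library and none passed the filter.

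Ifnar2, the receptor chain that binds interferon with high affinity, was called by genotype in Sham and not by stroke in WT mice. Its level was 153, 133 and 143 CPM in WT-Sham, 304, 291 and 249 in miKO-Sham, 132, 134 and 132 in WT-tFCI, and 134, 166 and 176 in miKO-tFCI. The miKO-Sham libraries stood alone above the other 9. Ifnar2 overlaps Gm21970 on the same strand and shares 7.1% of its 75-base stretches with it, so its counts are less certain. Ifnar2 was called higher in miKO-Sham than in WT-Sham, with a log2 fold change of 0.97 ± 0.14 SE (edgeR, Benjamini-Hochberg adjusted p = 0.000148), and it was the only member called lower in miKO-tFCI than in miKO-Sham, at −0.83 ± 0.14 SE (edgeR, Benjamini-Hochberg adjusted p = 0.000261). Its stroke response differed between genotypes by −0.72 ± 0.19 SE, which missed the threshold (edgeR, Benjamini-Hochberg adjusted p = 0.0533). Ifnar1, the other chain, was at 74.4, 74.5 and 75.9 CPM in WT-Sham, 106, 100 and 116 in miKO-Sham, 87.4, 87.3 and 103 in WT-tFCI, and 83.7, 102 and 108 in miKO-tFCI. It was higher in each miKO-Sham library, but its log2 difference there, 0.52 ± 0.13 SE, lay under the fold limit.

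The transcription factors include 2 subunits of ISGF3. Stat2 was at 21, 24.5 and 32.8 CPM in WT-Sham, 37.5, 37.3 and 51.2 in miKO-Sham, 31.8, 50.9 and 52.9 in WT-tFCI, and 47.2, 52.9 and 68.8 in miKO-tFCI. It was called higher after stroke in WT (0.78 ± 0.17 SE) and in miKO-Sham over WT-Sham (0.70 ± 0.17 SE). Irf9, the DNA-binding subunit, was at 61.4, 71.9 and 76.2 CPM in WT-Sham and 97.3, 97.9 and 121 in miKO-Sham, and at 75.3, 84.5 and 89.8 in WT-tFCI and 76.5, 82.9 and 89.7 in miKO-tFCI. Irf9 was thus called higher in miKO-Sham (0.60 ± 0.12 SE, just above the fold limit) and in no other comparison.

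Irf7, the interferon-induced amplifier of interferon expression, changed most among the 3. It was at 12.9, 13.9 and 10.8 CPM in WT-Sham, 29.3, 25.7 and 32.3 in miKO-Sham, 62.6, 96.6 and 108 in WT-tFCI, and 89.5, 92.4 and 87.0 in miKO-tFCI. The Sham groups did not overlap each other or the tFCI libraries, while the tFCI groups overlapped. The log2 fold change was 2.82 ± 0.19 SE for stroke in WT, 1.22 ± 0.19 SE for miKO-Sham over WT-Sham, and 0.03 for miKO-tFCI over WT-tFCI with a 95% interval of −0.33 to 0.39. Irf7 overlaps Phrf1 on the other strand, and the library kit did not mark strand. Among other members called in miKO-Sham over WT-Sham, Dhx58, Usp18, Oasl1 and Slfn5 also overlap a gene on the other strand. Irf9 and Herc6, like Ifnar2, overlap a gene on the same strand. The counts of these members are less certain.

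Among the nucleic acid sensors, 5 of 6 were called higher in WT-tFCI over WT-Sham and 3 of 6 in miKO-Sham over WT-Sham. Ifi204, a mouse DNA sensor of the interferon-inducible HIN-200 family, was at 7.45, 9.30 and 9.64 CPM in WT-Sham, 33.5, 42.2 and 39.3 in miKO-Sham, 55.4, 90.9 and 81.8 in WT-tFCI, and 62.4, 103 and 133 in miKO-tFCI. Each of its miKO-Sham values exceeded each WT-Sham value. Its log2 fold change there, 2.13 ± 0.17 SE, was the largest among the members called, but Ifitm3 was nearly equal at 2.12 ± 0.26 SE. By batch, Ifi204 was at 2.13 in batch 1 and 2.08 in batch 2, and Ifitm3 at 1.19 and 2.63, so in batch 2 Ifitm3 was ahead. The cytosolic sensor Zbp1, which binds left-handed nucleic acid and can start necroptosis, was at 3.37, 2.24 and 1.64 CPM in WT-Sham, 6.53, 8.46 and 5.64 in miKO-Sham, 25.6, 36.5 and 42.9 in WT-tFCI, and 39.5, 41.2 and 44.6 in miKO-tFCI, with the Sham groups apart and the tFCI groups overlapping. It was called higher for stroke in WT (3.85 ± 0.27 SE) and in miKO-Sham over WT-Sham (1.51 ± 0.29 SE). The RNA helicases differed among themselves. Dhx58 (LGP2) was called higher in both WT-tFCI and miKO-Sham over WT-Sham, at 1.53 ± 0.19 SE and 0.70 ± 0.19 SE. Ifih1 (MDA5) was called higher after stroke in WT (0.80 ± 0.16 SE), and Ddx58 (RIG-I) was called in none of the comparisons. Eif2ak2, the RNA-activated kinase PKR that halts translation, was called higher after stroke in WT (1.21 ± 0.16 SE), with −0.41 ± 0.15 SE in miKO-tFCI over WT-tFCI, not called. Ifi204 shares 13.2% of its 75-base stretches with other genes of its family, so its counts are less certain.

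The 4 IFIT genes, whose proteins bind foreign RNA ends, lie together at chr19:34550694-34650009 and all were called higher after stroke in both genotypes. Ifit2 was at 8.17, 6.61 and 8.41 CPM in WT-Sham, 13.9, 11.2 and 20.9 in miKO-Sham, 44.3, 61.4 and 55.9 in WT-tFCI, and 63.9, 70.1 and 109 in miKO-tFCI, with the groups in that order and no overlap. Ifit3 had the same order, with 13.5, 13.5 and 36.0 CPM in miKO-Sham, so that replicate 3 stood above the others. Ifit1, the family member that sequesters RNA lacking cap methylation, was at 2.52, 2.13 and 1.44 CPM in WT-Sham, 1.67, 2.22 and 4.23 in miKO-Sham, 17.4, 10.2 and 9.63 in WT-tFCI, and 23.8, 15.2 and 22.9 in miKO-tFCI. Its Sham groups overlapped, and it was called higher for stroke in miKO (2.88 ± 0.36 SE) and in WT (2.59 ± 0.36 SE). After stroke, 3 of the 4 (Ifit2, Ifit3 and Ifit3b) had every miKO-tFCI library above every WT-tFCI library, as did Usp18, Oas3, Mx1 and Cmpk2, 7 members in all (9.58% of all genes). Of these 7, 0 were called: for Ifit2 the log2 difference was 0.59 ± 0.21 SE (edgeR, Benjamini-Hochberg adjusted p = 0.0917). Ifit3 and Ifit3b share 41.1% and 35.7% of their 75-base stretches, which include each other's, and their counts cannot be fully separated.

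In the ISG15 system, the ubiquitin-like modifier Isg15 and its protease Usp18 were called higher in the same comparisons, and the ligase Herc6 was called higher in none. Isg15 was at 4.93, 4.82 and 2.67 CPM in WT-Sham, 11.1, 9.57 and 6.79 in miKO-Sham, 28.8, 31.4 and 38.0 in WT-tFCI, and 49.8, 36.2 and 27.7 in miKO-tFCI. Its log2 fold change was 3.01 ± 0.26 SE for stroke in WT and 1.15 ± 0.27 SE for miKO-Sham over WT-Sham. For Usp18 the corresponding values were 1.83 ± 0.21 SE and 1.33 ± 0.21 SE. Herc6, the main ISG15 ligase in mice, was at 15.4, 24.7 and 29.9 CPM in WT-tFCI and 14.9, 15.1 and 14.1 in miKO-tFCI. Its stroke differences were 0.48 ± 0.25 SE in WT and 0.65 ± 0.26 SE in miKO, neither called. In miKO all 3 tFCI libraries lay above all 3 Sham libraries (26.5% of all genes did). Without stroke Herc6 was at 17.7, 13.9 and 17.5 CPM in WT-Sham and 7.36, 7.35 and 13.6 in miKO-Sham, lower in each miKO-Sham library. It was called lower there (−0.81 ± 0.26 SE; edgeR, Benjamini-Hochberg adjusted p = 0.0425), and the call was lost in 11 of 21 alternatives, without miKO-Sham replicate 1 or 2 or WT-Sham replicate 1 or 3 among them, where the adjusted p reached 0.189.

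All 5 members of the OAS family, which make the second messenger of RNase L or are its inactive relatives, were called higher after stroke in both genotypes, and Oas1a, Oasl1 and Oasl2 were called higher in miKO-Sham over WT-Sham. Oas1a was at 7.93, 8.96 and 9.85 CPM in WT-Sham, 20.1, 14.7 and 24.3 in miKO-Sham, 47.4, 60.5 and 64.2 in WT-tFCI, and 64.0, 54.0 and 53.6 in miKO-tFCI. The Sham groups were separate and the tFCI groups overlapped. Oasl1 was at 1.2, 1.9 and 0.821 CPM in WT-Sham, 3.33, 5.13 and 5.89 in miKO-Sham, 10.8, 17.9 and 16.9 in WT-tFCI, and 18.7, 18.3 and 17.4 in miKO-tFCI, and was called higher in miKO-Sham over WT-Sham (log2 fold change 1.86 ± 0.33 SE). Oas3, the member that makes long 2-5A chains, was at 0.601, 0.896 and 0.718 CPM in WT-Sham, 0.278, 0.694 and 1.54 in miKO-Sham, 6.1, 4.73 and 6.46 in WT-tFCI, and 15.3, 8.55 and 6.67 in miKO-tFCI. Its fold change in miKO-tFCI over miKO-Sham, 3.53 ± 0.51 SE on the log2 scale, was the largest among the members called in that comparison by the fit to all libraries. It was 4.91 in batch 1 and 2.60 in batch 2, and ran from 2.71 to 4.34 over 20 alternatives, while Rsad2 was at 3.61 and 3.16 in the batches, so in batch 2 Rsad2 was ahead. Oas1a shares 47.6% of its 75-base stretches with Oas1g.

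The dynamin-like GTPases held members called higher, lower and not at all. Mx1, which traps viral nucleocapsids, was called higher after stroke in WT (1.80 ± 0.23 SE), as was Gbp2, a guanylate-binding protein also known as an interferon-gamma target (2.11 ± 0.32 SE). Gbp3 was at 11.3, 16.8 and 18.6 CPM in WT-Sham, 5.41, 6.38 and 11.1 in miKO-Sham, 22.3, 24.9 and 25.3 in WT-tFCI, and 16.0, 15.7 and 25.8 in miKO-tFCI. It was called lower in miKO-Sham (−1.02 ± 0.24 SE; edgeR, Benjamini-Hochberg adjusted p = 0.00832) and higher after stroke in WT (0.66 ± 0.23 SE), with miKO-tFCI over WT-tFCI at −0.34 ± 0.22 SE. The stroke call was lost without any 1 of the 6 WT libraries, with an adjusted p of up to 0.164 over the 21 alternatives. Gbp7, next to it on chromosome 3, was called in none of the comparisons, and Mx2, annotated as a polymorphic pseudogene, was not called either.

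Of the genes acting at membranes, Bst2 (tetherin), which holds budding virus at the cell surface, and Ifitm3, which blocks entry from endosomes, were by level per kilobase of exon among the highest members in all 4 groups. Bst2 led in WT-Sham with 87.0 CPM per kilobase. Bst2 was at 84.0, 86.5 and 65.1 CPM in WT-Sham, 180, 181 and 160 in miKO-Sham, 209, 250 and 245 in WT-tFCI, and 191, 248 and 210 in miKO-tFCI. The WT-Sham libraries were thus apart from all others, and miKO-tFCI over miKO-Sham was 0.31 with a 95% interval of 0.00 to 0.63, not called. Ifitm3 was at 43.9, 18.7 and 10.5 CPM in WT-Sham, 101, 85.3 and 90.4 in miKO-Sham, 389, 262 and 227 in WT-tFCI, and 901, 370 and 380 in miKO-tFCI. In each group the batch 1 library was the highest, and miKO-tFCI replicates 2 and 3 lay below the batch 1 library of WT-tFCI. Ifitm3 was the member called higher in miKO-tFCI over WT-tFCI (0.82 ± 0.24 SE; edgeR, Benjamini-Hochberg adjusted p = 0.0445), at 1.21 in batch 1 and 0.62 in batch 2. The call was lost in 10 of 21 alternatives, including without any 1 of the 6 tFCI libraries or without WT-Sham replicate 2, where the adjusted p ran up to 0.278.

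Beside this Ifitm3 difference, some markers of other myeloid cells were also called higher in miKO-tFCI over WT-tFCI, as were 4.08% of all genes. Of 8 monocyte and macrophage markers, 3 were called higher (Ccr2, Chil3 and Itga4) and 1 had a negative difference. The 8 summed to 363 to 654 CPM in WT-tFCI and 430 to 955 in miKO-tFCI. Ly6c2, which was not called, was at 68.0, 11.2 and 11.4 CPM in the miKO-tFCI libraries. Of 8 border-associated macrophage markers, 3 were called higher, with sums of 703 to 1021 CPM in WT-tFCI and 1001 to 2122 in miKO-tFCI. Of 7 neutrophil markers tested, 5 were called higher, with sums of 145 to 196 CPM in WT-tFCI and 656 to 897 in miKO-tFCI, while the defining neutrophil gene Ly6g was at 0 to 0.742 CPM in all libraries. Ifitm1, a close relative of Ifitm3 that is no member, was at 403, 39.6 and 50.1 CPM in miKO-tFCI and 115, 13.3 and 10.5 in WT-tFCI. The part of these cells in the Ifitm3 difference was not tested. In Sham, monocyte and macrophage markers summed to 13 to 94 CPM in WT-Sham and 58.5 to 117 in miKO-Sham. Border-associated macrophage markers summed to 574 to 713 and 1375 to 1651 CPM. In miKO-Sham over WT-Sham, 1 of 8 and 2 of 8 were called higher (8.58% of all genes). Plasmacytoid dendritic cell markers summed to 8.63 to 16.8 CPM in WT-Sham, 12.0 to 24.0 in miKO-Sham, 25.5 to 35.7 in WT-tFCI and up to 49.2 in miKO-tFCI, and their part was not tested.

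Rsad2 (viperin) and Cmpk2, which lie side by side at chr12:26442746-26479837 and act together in making an antiviral nucleotide, were called higher after stroke in both genotypes. Rsad2 was at 1.80, 3.03 and 2.36 CPM in WT-Sham, 3.33, 4.99 and 5.12 in miKO-Sham, 24.9, 42.2 and 39.2 in WT-tFCI, and 43.4, 56.3 and 39.2 in miKO-tFCI. Its log2 fold change was 3.87 ± 0.22 SE for stroke in WT and 3.39 ± 0.21 SE in miKO. In miKO-Sham over WT-Sham it was called higher (0.90 ± 0.25 SE), while Cmpk2 was not (0.78 ± 0.35 SE).

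The Schlafen genes, regulators of growth and translation that lie at chr11:82951349-83070678, split in miKO-Sham. Slfn5 was at 5.05, 4.37 and 3.28 CPM in WT-Sham and 7.08, 9.02 and 10.9 in miKO-Sham, and was called higher (1.10 ± 0.29 SE). Slfn8 was at 61.1, 57.5 and 64.6 CPM in WT-Sham, 34.6, 27.1 and 44.2 in miKO-Sham, 35.7, 50.7 and 57.4 in WT-tFCI, and 27.5, 34.2 and 50.1 in miKO-tFCI. Its WT-Sham libraries were above all the others, and it was called lower in miKO-Sham (−0.79 ± 0.21 SE; edgeR, Benjamini-Hochberg adjusted p = 0.0141). Without WT-Sham replicate 1 or without miKO-Sham replicate 2 the Slfn8 call was lost, with an adjusted p of up to 0.0801, and 1 of the 3 members called lower in miKO-Sham then remained. Slfn2, which keeps T cells and monocytes quiescent, was called higher after stroke in WT (2.12 ± 0.21 SE) and was not called in miKO-Sham (0.58 ± 0.20 SE).

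Among the other induced genes, Ifi27l2a had the largest stroke response in WT of any member called. Ifi27l2a, a small gene of the interferon-induced ISG12 family, was at 16.9, 11.1 and 5.03 CPM in WT-Sham, 34.3, 24.7 and 27.5 in miKO-Sham, 312, 317 and 289 in WT-tFCI, and 163, 136 and 125 in miKO-tFCI. No 2 groups overlapped: the miKO libraries were higher than WT in Sham and lower than WT after tFCI. The log2 fold change was 4.86 ± 0.26 SE for stroke in WT and 2.30 ± 0.23 SE in miKO. For genotype it was 1.43 ± 0.24 SE in Sham and −1.13 ± 0.22 SE after tFCI (edgeR, Benjamini-Hochberg adjusted p = 0.00445). It was the only member called lower in miKO-tFCI over WT-tFCI, at −0.93 in batch 1 and −1.21 in batch 2. By level per kilobase it led all members in WT-tFCI, at 661 CPM per kilobase, and Ifitm3 led in miKO-tFCI, at 812.

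The remaining induced genes were called for stroke in WT, except Parp14. Trim30a, a negative regulator of Toll-like receptor signalling, Sp100, a nuclear body protein, Xaf1, which antagonizes an apoptosis inhibitor, and Rtp4 were called higher after stroke in WT by 0.78 to 2.04 on the log2 scale (Trim30a 0.78, Sp100 1.47, Xaf1 1.49, Rtp4 2.04), and none of these 4 was called in miKO-Sham, where Xaf1 was at 0.56 ± 0.18 SE, just under the fold limit. Whether the 2 comparisons differed for these genes was not tested. Samd9l, an antiproliferative gene, was at 2.76, 2.69 and 2.67 CPM in WT-Sham, 0.416, 1.66 and 1.79 in miKO-Sham, 9.22, 7.04 and 6.09 in WT-tFCI, and 14.1, 8.29 and 9.52 in miKO-tFCI. It was lower in each miKO-Sham library than in WT-Sham, though not called (−1.04 ± 0.44 SE), and it was called higher for stroke in miKO (2.99 ± 0.43 SE) and in WT (1.45 ± 0.39 SE). Ifi44, an antiproliferative cytosolic gene, had 0, 3 and 1 counts in WT-Sham, 7, 0 and 8 in miKO-Sham, 26, 21 and 15 in WT-tFCI and 97, 22 and 36 in miKO-tFCI, and its summed level was 16.6 times higher in WT-tFCI (6.16 to 62.8, counting error alone). Parp14, an ADP-ribosyltransferase, was called in none of the comparisons.

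Some calls in miKO-Sham over WT-Sham rested on single libraries. Of the 20 members called higher, 11 stayed called in every alternative that tested them, 20 for Oasl1 and 21 for the others: Ifnar2, Irf7, Zbp1, Ifi204, Ifit3, Usp18, Oasl1, Oas1a, Ifitm3, Bst2 and Ifi27l2a. Without WT-Sham replicate 2 the calls of Stat2, Irf9, Dhx58, Ifit2, Ifit3b, Oasl2 and Slfn5 were lost, without miKO-Sham replicate 3 those of Irf9, Dhx58, Ifit2, Ifit3b, Oasl2, Rsad2 and Slfn5, and either way 14 members were called higher. Without WT-Sham replicate 3 Ifit3b, Isg15, Rsad2 and Slfn5 were lost, and without WT-Sham replicate 1 Irf9, Dhx58, Ifit3b, Oasl2 and Rsad2. Over all alternatives the highest adjusted p was 0.0626 for Isg15, 0.0721 for Ifit2, 0.0914 for Irf9, 0.0941 for Slfn5, 0.102 for Stat2, 0.11 for Rsad2, 0.141 for Dhx58, 0.166 for Oasl2 and 0.221 for Ifit3b. For stroke in miKO, Xaf1 (0.59 ± 0.17 SE) and Oas2 (1.42 ± 0.43 SE) were the calls lost in some alternatives, 14 and 4 of 21, with adjusted p up to 0.0661 and 0.0749.

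**Figure D2:**
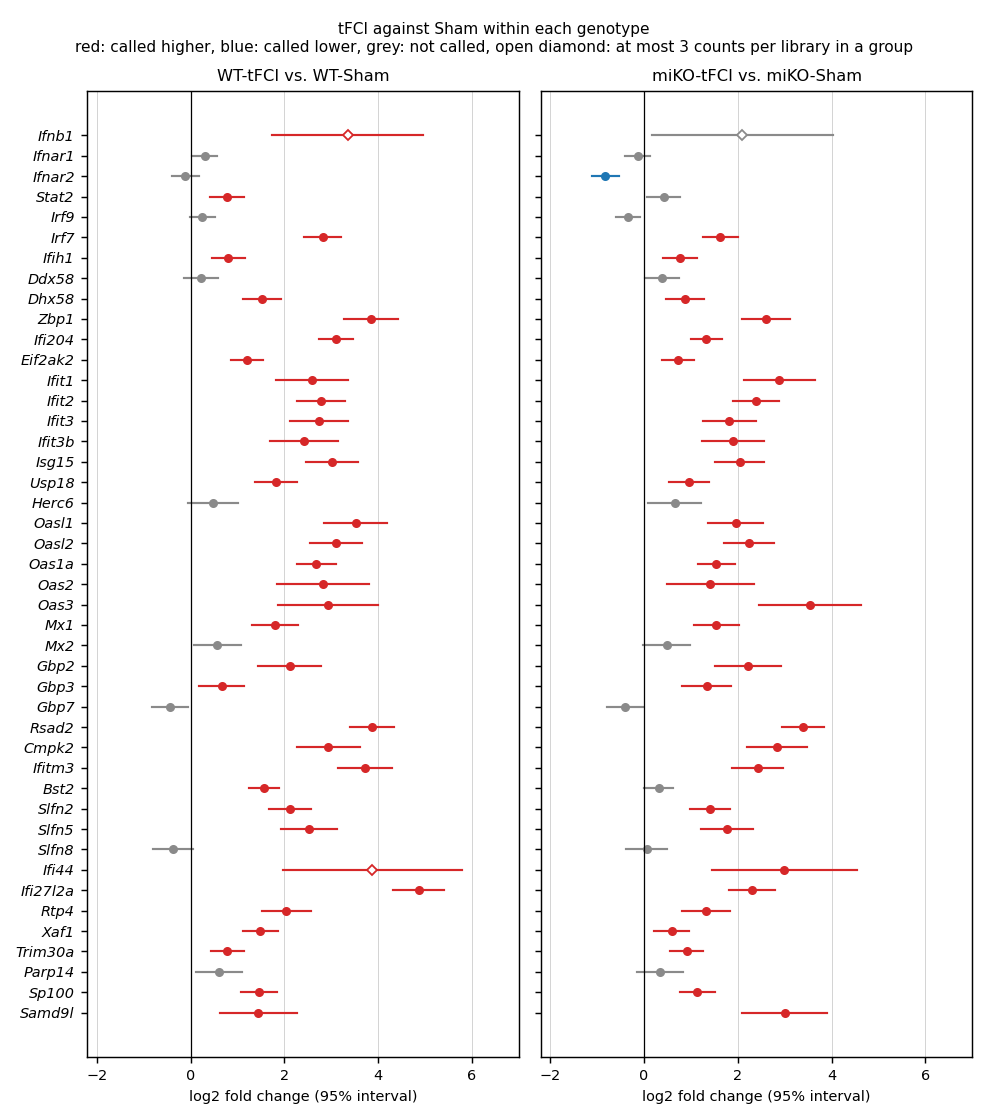
Log2 fold change of each member for tFCI against Sham in WT (left) and miKO (right), with 95% intervals from the edgeR fit; red points were called higher, blue lower and grey not called, and open diamonds mark genes with at most 3 counts per library in a group. In WT 35 points are red, and in miKO 32 are red and Ifnar2 is blue.

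In miKO mice the stroke comparison, miKO-tFCI over miKO-Sham, called 32 members higher (21.9% of all genes) and 1 lower (13.9% of all genes), with a median log2 fold change of 1.41 over the members and 0.03 over all genes. In 34 members the 2 groups did not overlap and tFCI was higher (26.5% of all genes), and in 2, Ifnar2 and Irf9, it was lower (21.6% of all genes). Whether the stroke response differed by genotype was tested by the interaction term, for which 1.25% of all genes were called higher and 2.57% lower, 3.82% in either direction. The 5 members called were all lower, meaning a smaller response in miKO: Ifi27l2a (−2.56 ± 0.33 SE), Ifi204 (−1.76 ± 0.23 SE), Bst2 (−1.26 ± 0.21 SE), Irf7 (−1.19 ± 0.25 SE) and Oas1a (−1.14 ± 0.27 SE). For Bst2, Irf7, Ifi204 and Oas1a the miKO-Sham libraries started higher and the tFCI groups overlapped, whereas Ifi27l2a also ended lower. Over the 44 members the median interaction was −0.56, against −0.02 over all genes, −0.15 in batch 1 and −0.59 in batch 2. The number called lower was 4 without miKO-Sham replicate 1, 7 without miKO-Sham replicate 2, 8 without WT-Sham replicate 1, and 3 without WT-Sham replicate 2 or 3, WT-tFCI replicate 2 or 3, or miKO-tFCI replicate 3. Of the 39 members not called, 25 had 95% intervals reaching beyond 1 in size, so a difference of that size is not excluded for them.

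**Figure D3:**
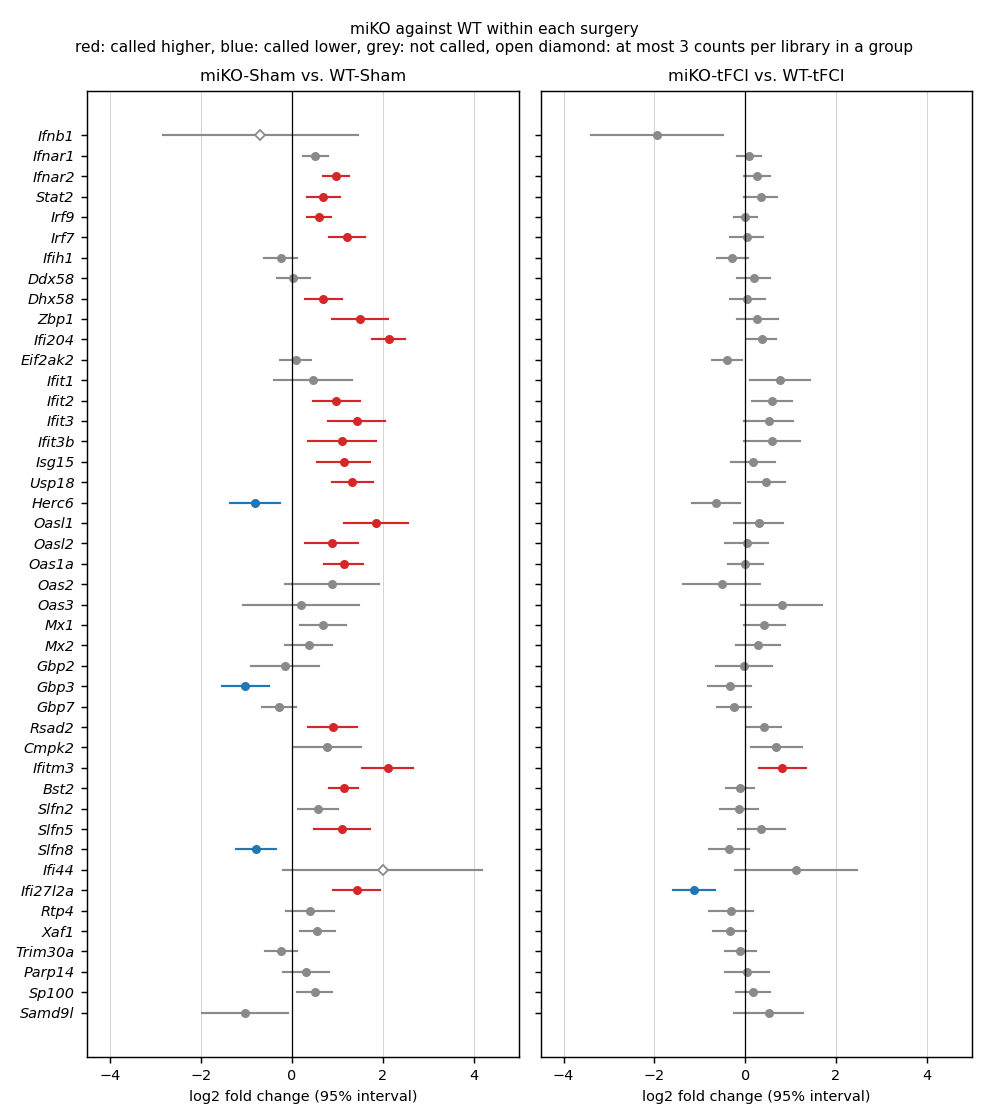
Log2 fold change of each member for miKO against WT in Sham (left) and after tFCI (right), drawn as in the plot of the stroke comparisons. In Sham 20 points are red and Herc6, Gbp3 and Slfn8 are blue, and after tFCI Ifitm3 is red and Ifi27l2a blue.

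After tFCI the genotype intervals were narrow for most members. Of the 42 members not called in miKO-tFCI over WT-tFCI, 31 had 95% intervals within 1 of 0 on the log2 scale and 11 did not: Ifnb1, Ifit1, Ifit2, Ifit3, Ifit3b, Herc6, Oas2, Oas3, Cmpk2, Ifi44 and Samd9l. At an unadjusted p below 0.05 there were 9 of the 42: Ifnb1, Eif2ak2 and Herc6 with negative differences, and Ifi204, Ifit1, Ifit2, Usp18, Rsad2 and Cmpk2 with positive ones. In 4 members (Ifnb1, Herc6, Ifi27l2a and Xaf1) every miKO-tFCI library was below every WT-tFCI library, where 13.3% of all genes were.

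**Figure D4:**
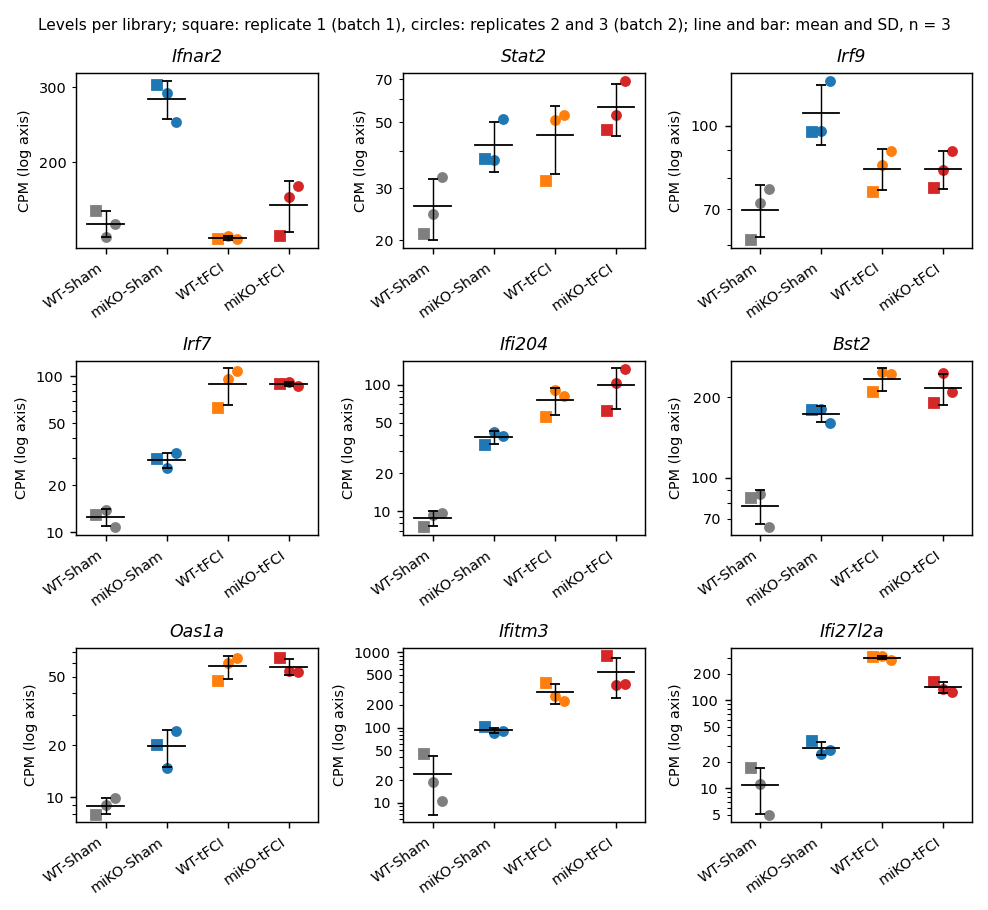
CPM of 9 members on log axes in each library, by group; squares are replicate 1 (batch 1), circles replicates 2 and 3 (batch 2), and lines and bars the mean and SD of 3 libraries. Bst2, Irf7, Ifi204 and Oas1a are higher in miKO-Sham than in WT-Sham and overlap after tFCI, Ifnar2 is high in miKO-Sham alone, and Ifi27l2a is lower in miKO-tFCI than in WT-tFCI.

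The other genes of the pathway are given by their counts, to be read against the shares of all genes called given above. Of 21 genes of the induction pathway (sensors, adaptors and kinases that lead to interferon expression), 2 were called higher and 4 lower in WT-tFCI over WT-Sham, 3 and 1 in miKO-Sham over WT-Sham, and 1 and 2 in miKO-tFCI over WT-tFCI, which are described next. Ikbke, the inducible kinase of IRF3 and IRF7, was at 1.32 to 1.90 CPM in WT-Sham, 8.26 to 14.4 in WT-tFCI and 20.4 to 30.0 in miKO-tFCI, and was called higher both for stroke in WT (2.87 ± 0.41 SE) and for genotype after tFCI (1.17 ± 0.33 SE). Tlr3, the endosomal double-stranded RNA receptor, was at 45.4 to 52.3 CPM in WT-Sham and 18.7 to 21.5 in miKO-Sham, and was called lower by genotype in Sham (−1.25 ± 0.15 SE) and after tFCI (−1.06 ± 0.15 SE). Tmem173, encoding the DNA-sensing adaptor STING, was called lower after stroke in WT (−0.96 ± 0.13 SE) and in miKO-tFCI over WT-tFCI (−0.73 ± 0.13 SE). Of 12 genes of receptor signalling and its brakes, 2 were called higher and 3 lower after stroke in WT, 1 higher in miKO-Sham (the phosphatase gene Ptpn6, 0.87 ± 0.15 SE) and 1 lower in miKO-tFCI (Socs3, −0.62 ± 0.15 SE). Of 51 other interferon-induced genes tested, 23 were called higher and 1 lower after stroke in WT, 14 and 3 in miKO-Sham, and 6 and 2 in miKO-tFCI over WT-tFCI. For stroke in miKO the counts called higher and lower were 2 and 7 for the induction pathway, 1 and 3 for receptor signalling and 23 and 2 for the other induced genes.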

How the data were processed

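The 12 libraries were made with SMART-Seq v4, an ultra-low-input kit that does not mark strand, and sequenced as read pairs. The deposited values are raw gene counts: per the submitters' processing notes the authors used FastQC (0.11.9), Trim Galore, HISAT2 (2.2.1), SAMtools and HTSeq (1.99.2) on mm10, and the strand setting and annotation release are not given in the sources used here. Rows naming no gene were left out, and reads on no feature made up 45.3% to 52.5% of all counted. Symbols came from GENCODE M21 by unversioned identifier (55141 of 55401 matched). Genes passing filterByExpr were fitted in R 4.3.3 with edgeR 4.0.16 (TMM scaling, quasi-likelihood test, group and batch terms, all 12 libraries together), with DESeq2 1.42.0 as an alternative. CPM use TMM-scaled library sizes. Normalization factors ran from 0.864 to 1.11.

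Values in each library are given for Hdac3, the ligand, receptors and transcription factors, every member called in miKO-tFCI against WT-tFCI or in the interaction, and the 5 members with the largest called change in each other comparison. Other members appear by range, count or as examples of their role, and library values of Ifit2, Isg15, Herc6, Gbp3, Slfn5, Slfn8, Ifitm1 and Ly6c2 were added after their values were seen. The members, lists and tests were chosen with earlier results of these data known. In data simulated for miKO-tFCI against WT-tFCI, 116 of 200 genes changed by 1 on the log2 scale were recovered among 16002 genes, with 4 false calls. The simulated libraries held no batch or stroke effect and used the spread of the trend over genes. Only genes above 1 CPM were changed, so these rates may not hold for the real libraries. Pairwise deviations of same-numbered libraries correlated at −0.06 to 0.67, above 0.1 in 11 of 18 pairs. In WT-tFCI and miKO-tFCI all 3 pairs were above 0.1 (0.67, 0.33 and 0.32), and in the other comparisons not every pair was. Libraries with different numbers were not compared in this way, and same-numbered libraries also share a batch. These values therefore cannot tell pairing from a shared batch, and the replicate block is given only as an alternative. Promoter sequences and start sites are RefSeq's (GRCm38.p6), and gene coordinates are GENCODE M21's on GRCm38. Intervals of counts cover counting error only.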

Additional observations from a re-analysis of the deposited data

Results flagged for a closer look

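In 5 members the effect of tFCI in miKO differed from that in WT by the test of the difference itself (edgeR interaction term, Benjamini-Hochberg adjusted over all genes). The difference, miKO minus WT on the log2 scale, was −2.56 for Ifi27l2a (adjusted p = 0.000553), −1.76 for Ifi204 (adjusted p = 0.000592), −1.26 for Bst2 (adjusted p = 0.00349), −1.19 for Irf7 (adjusted p = 0.0152) and −1.14 for Oas1a (adjusted p = 0.0273). The calls for Ifi27l2a, Ifi204 and Bst2 held in all 20 alternatives, that for Irf7 was lost in 7 of 20 and that for Oas1a in 10 of 20, with adjusted p up to 0.0802 and 0.108. Microglia markers summed to 10484 to 20267 CPM in miKO-tFCI and 20942 to 23284 CPM in WT-tFCI, and the part of cell composition in these 5 differences was not tested.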

How the results depend on the processing

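Of the counts of members called, no direction reversed under any alternative. Scaled by total counts alone, 13 members were called higher in miKO-Sham over WT-Sham (20 with TMM), 0 higher in miKO-tFCI over WT-tFCI and 3 lower in the interaction. The interaction called 10 members lower with DESeq2, 14 with no filter on low counts and 9 in batch 2 alone. In miKO-tFCI over WT-tFCI, 0 members were called higher without a batch term, 4 higher and 3 lower in a fit of these 2 groups alone, and 0 higher and 2 lower in batch 2 alone. Of the 44 members, 26 overlap no gene and share under 10% of their 75-base stretches. Among these 26, 22 were called higher in WT-tFCI over WT-Sham, against 35 of all 44. In miKO-Sham over WT-Sham 9 were called higher, against 20 of all 44. For miKO-tFCI over miKO-Sham 19 were called higher and 0 lower, against 32 and 1. In the interaction 2 were called lower, against 5. The share called higher in miKO-Sham, and called lower in the interaction, was thus smaller among the 26 than among all 44. With 1 library left out at a time, members called higher ranged from 34 to 36 for stroke in WT, 14 to 23 in miKO-Sham, 0 to 2 in miKO-tFCI over WT-tFCI and 30 to 32 for stroke in miKO, and members called lower ranged from 1 to 3 in miKO-Sham, 1 to 1 in miKO-tFCI over WT-tFCI and for stroke in miKO, and 3 to 8 in the interaction. With the replicate block in place of the batch term, 35, 19, 1 and 33 members were called higher and 0, 3, 1 and 1 lower in the comparisons for stroke in WT, miKO-Sham, miKO-tFCI over WT-tFCI and stroke in miKO, and 5 lower in the interaction. Among the members called in the fit with the batch term, the fit with the replicate block lost the call of Ifit3b in miKO-Sham over WT-Sham and no other. With 3 libraries per group, many intervals of genotype differences reached beyond 1 on the log2 scale.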

Other observations

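Of 51 other interferon-induced genes tested outside the 44, 7 had a stroke response called smaller in miKO (edgeR interaction term, Benjamini-Hochberg adjusted). Over all genes tested, 2.57% were called lower in the interaction. The 7 were Lgals3bp, Ifitm2, Helz2, Ifi207, Lgals9, Ly6e and Shisa5, named after their values were seen. Lgals3bp, a secreted glycoprotein gene, was at 154, 184 and 165 CPM in WT-Sham, 751, 764 and 726 in miKO-Sham, 640, 775 and 791 in WT-tFCI, and 617, 834 and 925 in miKO-tFCI. The WT-Sham libraries stood apart from the other 9, and its interaction was −2.07 ± 0.20 SE. Lgals9, encoding galectin-9, was at 394 to 400 CPM in WT-Sham and 880 to 954 in miKO-Sham, with an interaction of −1.09 ± 0.18 SE.

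Of 11 genes of the type II (interferon-gamma) pathway tested, 0 were called higher and 3 lower (Ifngr1, Igtp and Irgm2) in WT-tFCI over WT-Sham (20.9% and 11.7% of all genes), 0 were called in miKO-Sham over WT-Sham, and 1, Tgtp1, was called higher in miKO-tFCI over WT-tFCI. Of the 4 genes of the type III pathway, only Il10rb passed the filter on low counts, and it was called higher in miKO-Sham over WT-Sham (0.62 ± 0.13 SE).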
